A study of Homo sapiens with 4 samples.

Results

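Histone and arginine methyltransferases (writers) and demethylases (erasers) were examined in Jurkat cells with a hairpin against BDH1. The members were the protein-coding genes whose symbols begin with KMT2, KMT5, SETD, NSD, EHMT, SUV39H, EZH, PRMT or KDM, with DOT1L, EED, SUZ12 and CARM1. There were 57 members among the 25122 genes of the table, 40 on the writer side and 17 erasers. KDM4A, KDM4E and KDM4F, which the GENCODE 29 annotation also matches, were not analysed here.

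Messenger RNA was sequenced from 2 libraries carrying a hairpin RNA that targets BDH1 (shBDH1) and 2 carrying a control hairpin (shcontrol). Jurkat is a leukaemia line of T-cell origin (T-ALL), and both groups carry the genotype label WT. BDH1 encodes the mitochondrial enzyme that interconverts acetoacetate and 3-hydroxybutyrate, and the study asks about CDK4, MYC and histone modification downstream of it. All libraries come from 1 cell line, and whether the replicates of a group were grown separately is not labelled. The p-values therefore rest on the spread among the libraries at hand, which can be purely technical. How long the hairpins had acted is not given in the sources used here, and cells with restored MYC, which the study's description mentions, were not analysed here.

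Methyltransferases transfer a methyl group from S-adenosylmethionine to lysine or arginine side chains of histones and other proteins. Lysine demethylases remove it, with flavin as cofactor in the KDM1 enzymes and with 2-oxoglutarate, oxygen and iron in the JmjC enzymes. Methylation of histone H3 at lysine 4 or 36 is found at active genes, at lysine 9 in heterochromatin, and at lysine 27 at genes silenced by Polycomb. Several of these genes are mutated or misregulated in T-cell leukaemia, among them EZH2, SUZ12, EED and KDM6A.

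Values are normalized counts, which are gene read counts divided by 1 size factor per library. The recovered reads in genes totalled 29453383 and 28777374 in the shBDH1 libraries and 28681511 and 28797402 in the shcontrol libraries. Each fold change is a difference of log2(value + 1), shBDH1 over shcontrol, with its standard error (SE), and p-values are from limma, adjusted over 19301 genes with a mean of at least 10. BDH1 itself had 1221 and 1412 normalized counts in shBDH1 and 1725 and 1911 in shcontrol (log2 fold change -0.47, SE 0.078, adjusted p = 1.5e-05; 0.083 when the variance prior did not follow intensity). All 16 listed T-lineage genes were tested, of which 12 rose and 1 fell, where 20.3% and 20.8% of all genes tested did. Their summed values were 142850 to 147416 in shBDH1 and 121456 to 122264 in shcontrol. Markers of other cell types were low but partly higher: the 3 B cell genes with a row, of 5 listed, summed to 666 to 686 in shBDH1 against 220 in both shcontrol libraries, and CD79A was the 1 that rose. The 6 NK and cytotoxic genes summed to 392 to 459 against 126 to 128, with 3 that rose; the 5 of 6 myeloid genes with a row to 116 to 126 against 62.3 to 72.9, with 1 that rose. The 3 of 7 fibroblast and epithelial genes with a row summed to 922 to 1031 in shBDH1 and 718 to 732 in shcontrol, with 2 that rose, and the 1 erythroid and megakaryocyte gene of 5 with a row, ITGA2B, ranged from 61.9 to 68.4 against 65.7 to 82.8 and was not called. No listed marker with a row was at 0 in every library. The part of these markers in the results was not tested, and in bulk RNA fewer cells of a type and less RNA per cell cannot be told apart.

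Some promoters of members are shown first as examples. Other members that moved far, among them KDM8, KDM6B and KMT2C, are not shown. The sequences are RefSeq's on GRCh38.p14, from 250 bases before to 50 after each gene's start, written in the direction of transcription. Such starts can differ from GENCODE's, and a gene can use others. Capitals mark CACGTG, the E-box bound by MYC and MAX, in KDM6A (chromosome X, 44872938 to 44873237, plus strand), the eraser that rose most, and in EHMT2 (chromosome 6, 31897649 to 31897948, minus strand), the lysine 9 writer that fell most. In KDM2B (chromosome 12, 121580974 to 121581273, minus strand), the member that fell most, no E-box was found and capitals mark the CCAAT box. In PRMT1 (chromosome 19, 49677021 to 49677320, plus strand) and PRMT5 (chromosome 14, 22929327 to 22929626, minus strand), capitals mark AAGATGGCG, a motif of YY1. These are the 2 most abundant arginine writers per kilobase of exon.
KDM6A: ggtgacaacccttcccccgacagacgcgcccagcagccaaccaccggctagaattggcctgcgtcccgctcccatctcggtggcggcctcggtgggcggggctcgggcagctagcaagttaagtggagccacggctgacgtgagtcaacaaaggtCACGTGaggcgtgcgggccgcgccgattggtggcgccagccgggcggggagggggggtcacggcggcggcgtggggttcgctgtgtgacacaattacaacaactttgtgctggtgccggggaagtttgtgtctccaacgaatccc
EHMT2: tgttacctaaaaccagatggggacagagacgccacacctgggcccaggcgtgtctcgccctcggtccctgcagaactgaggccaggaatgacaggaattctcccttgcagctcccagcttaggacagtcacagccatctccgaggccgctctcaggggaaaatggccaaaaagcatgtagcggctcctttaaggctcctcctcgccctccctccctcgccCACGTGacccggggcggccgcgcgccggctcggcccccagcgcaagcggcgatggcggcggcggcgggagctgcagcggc
KDM2B: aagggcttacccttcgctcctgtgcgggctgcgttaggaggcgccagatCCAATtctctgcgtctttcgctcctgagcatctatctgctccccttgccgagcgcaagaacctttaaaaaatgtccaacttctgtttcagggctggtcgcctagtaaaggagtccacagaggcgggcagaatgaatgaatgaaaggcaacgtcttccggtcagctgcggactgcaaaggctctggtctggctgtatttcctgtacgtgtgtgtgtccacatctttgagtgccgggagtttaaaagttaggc
PRMT1: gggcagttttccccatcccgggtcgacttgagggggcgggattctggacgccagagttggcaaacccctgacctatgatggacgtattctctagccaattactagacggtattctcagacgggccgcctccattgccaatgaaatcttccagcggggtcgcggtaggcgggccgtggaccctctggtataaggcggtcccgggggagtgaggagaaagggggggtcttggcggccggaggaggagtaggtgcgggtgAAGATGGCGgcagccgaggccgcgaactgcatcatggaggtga
PRMT5: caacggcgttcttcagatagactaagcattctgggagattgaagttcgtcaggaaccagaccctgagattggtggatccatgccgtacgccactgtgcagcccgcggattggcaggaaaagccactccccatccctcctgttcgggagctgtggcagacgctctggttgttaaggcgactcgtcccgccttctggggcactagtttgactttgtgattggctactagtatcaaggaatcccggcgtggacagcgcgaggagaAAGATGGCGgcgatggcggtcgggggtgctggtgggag

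The E-box began 95 bases before the start in KDM6A and 30 before it in EHMT2, and the YY1 motif began 7 and 12 bases after the start in PRMT1 and PRMT5. RefSeq promoters were matched for 54 members; those of NSD3, SETD1B and DOT1L were not used here. Both strands were searched. CACGTG stood in 9 of the 54 (16.7%), against 7.26% of all 35116 promoters of this length and 9.74% of the 11289 that belong to genes tested. Among members that fell it stood in 3 of 23 (KDM4B, EHMT2 and SETDB1), among those that rose in 1 of 11 (KDM6A), and among those not called in 5 of 19. AAGATGGCG stood in 5 members (KDM5C, KMT2B, PRMT1, PRMT5 and SUV39H2), or 9.26%, against 1.75% of all promoters and 3.58% of those of genes tested; the first 4 of these fell and SUV39H2 was not called. The E2F motifs TTTCCCGC or TTTGGCGC stood in 4 members (EZH2, NSD2, SUZ12 and KDM1B), 7.41% against 2.27% of all promoters and 3.49% of those of genes tested. CCAAT was in 35.2% of members and 34.6% of all promoters. The GC box GGGCGG was in 75.9% of members, 45.0% of all promoters and 67.2% of promoters of genes tested. The NRF1 motif GCGCATGCG stood in 2 members (EZH1 and SETD4), 3.7% against 1.92% of all promoters and 3.52% of those of genes tested. The CRE TGACGTCA stood in 1 (SUV39H2), 1.85% of members, 1.85% of all promoters and 3.05% of those of genes tested. Median GC was 66.3% in promoters of members, 58.7% in all promoters and 64.7% in those of genes tested. The median numbers of CpG were 30, 14 and 25. The part of base composition in the motif shares was not tested. These matches describe letters in a window and no binding was measured.

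Of the 57 members, 56 passed the filter on low values; PRMT8, a membrane-bound arginine methyltransferase of brain, had 0.983 and 10.1 normalized counts in shBDH1 and 6.16 and 1.02 in shcontrol and was not tested. Of the 56, 11 rose and 25 fell at an adjusted p under 0.05, which is 19.6% and 44.6%. Over all genes tested 20.3% rose and 20.8% fell, and 41.1% were called in either direction, against 64.3% of members. Members are highly expressed, and such genes are called more often. Among the 6664 protein-coding genes with a mean of 1000 or more, 26.3% rose, 34.6% fell and 60.8% were called, while of the 48 members at that level 11 rose (22.9%), 22 fell (45.8%) and 68.8% were called. The share called therefore lay near that of equally expressed genes, with more of it downward. The median log2 fold change was -0.13 for the members and -0.01 for all genes tested, and -0.04 for the protein-coding genes at a mean of 1000 or more. Changes were small in size. A called change of at least 0.4 was found for 8 members that fell (14.3%, against 9.92% of all genes tested) and 2 that rose (3.57%, against 13.0%); among protein-coding genes at a mean of 1000 or more these shares were 11.1% and 10.1%. The values of shBDH1 and shcontrol did not overlap for 47 members, 33 below and 14 above, that is 83.9%. Of all genes tested, 69.0% did not overlap, 34.9% below and 34.1% above; of the protein-coding genes at a mean of 1000 or more, 81.4% did not, 46.0% below and 35.3% above.

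**Figure D1:**
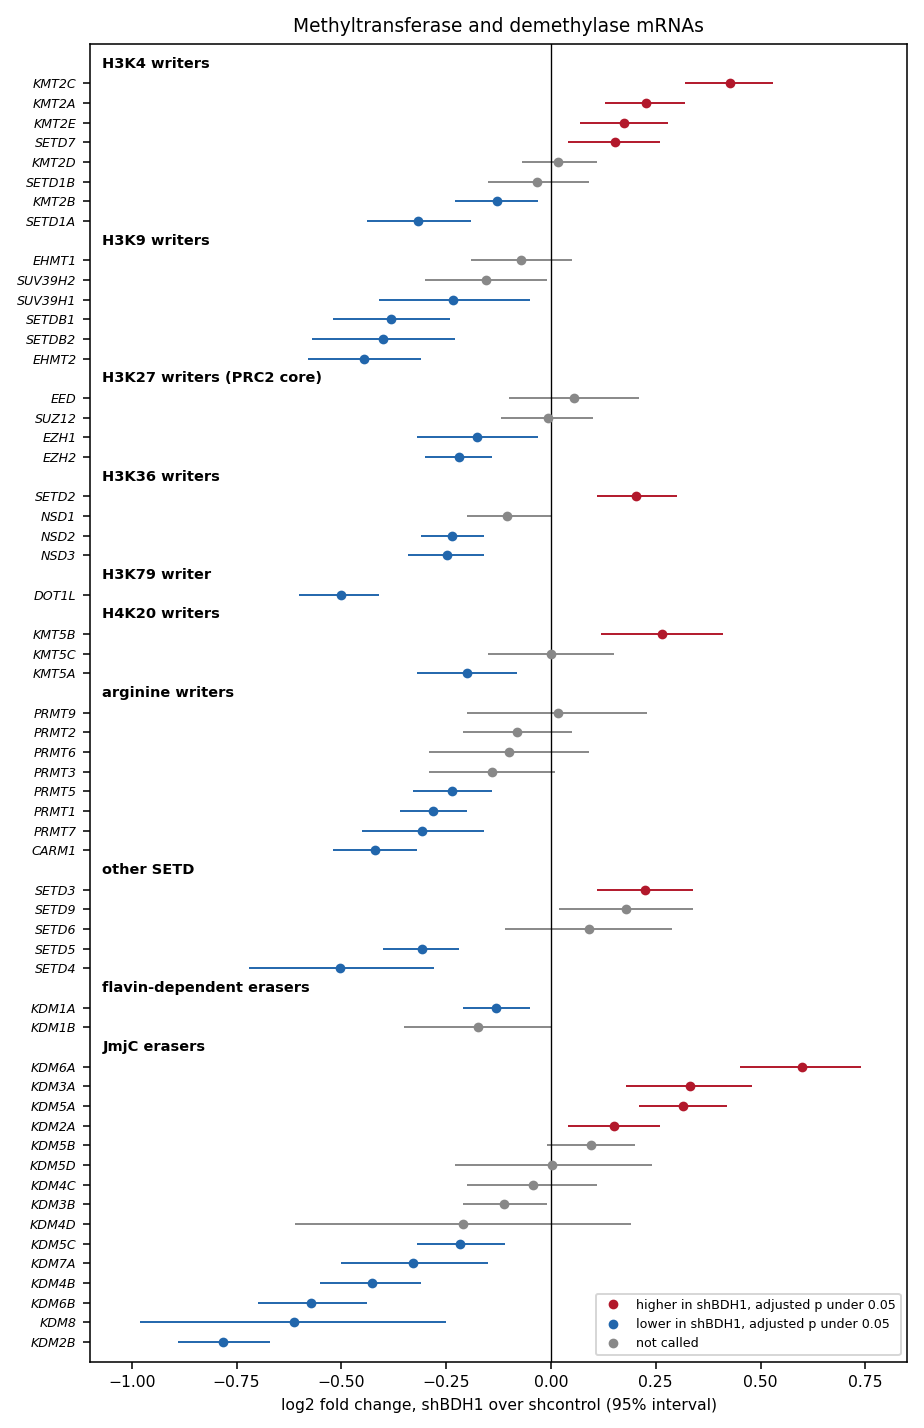
Log2 fold change (x axis, shBDH1 over shcontrol) of each of the 56 members tested, grouped by substrate class, with its 95% interval; red and blue mark members that rose or fell. KDM6A at 0.60 and KDM2B at -0.78 are the ends of the range. No H3K9, H3K27, H3K79 or arginine writer and no flavin-dependent eraser is among those that rose.

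As grouped here, writers and erasers had similar shares of calls and equal medians. Of 39 writers tested, 7 rose and 18 fell (17.9% and 46.2%); of 17 erasers, 4 rose and 7 fell (23.5% and 41.2%). Both medians were -0.13 on the log2 scale and their difference was 0.002. Without shcontrol replicate 2 this difference was -0.035. A difference of writer and eraser medians was also taken within each library, which is another measure. It was 0.016 and 0.019 in shBDH1 and -0.024 and 0.024 in shcontrol, values that overlapped. The larger of its group SDs between replicates was 0.035. Leaving out EED, SUZ12, KMT2E, SETD3, SETD4, SETD5, SETD6 and SETD9, 31 writers were tested. Of these 16.1% rose and 51.6% fell, with a median of -0.15. Erasers were spread more widely, with an SD over genes of 0.36 and a range from -0.78 to 0.60, than writers, with an SD of 0.23 and a range from -0.50 to 0.43. The values per kilobase summed over writers were 16942 and 16745 in shBDH1 and 18831 and 18618 in shcontrol; over erasers they were 5320 and 5216 in shBDH1 and 5727 and 5680 in shcontrol. Both sums were lower in shBDH1 without overlap. The ratio of these sums was 3.18 and 3.21 in shBDH1 and 3.29 and 3.28 in shcontrol. No test was made on these sums. Without shcontrol replicate 1 4 erasers were called lower instead of 7.

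**Figure D2:**
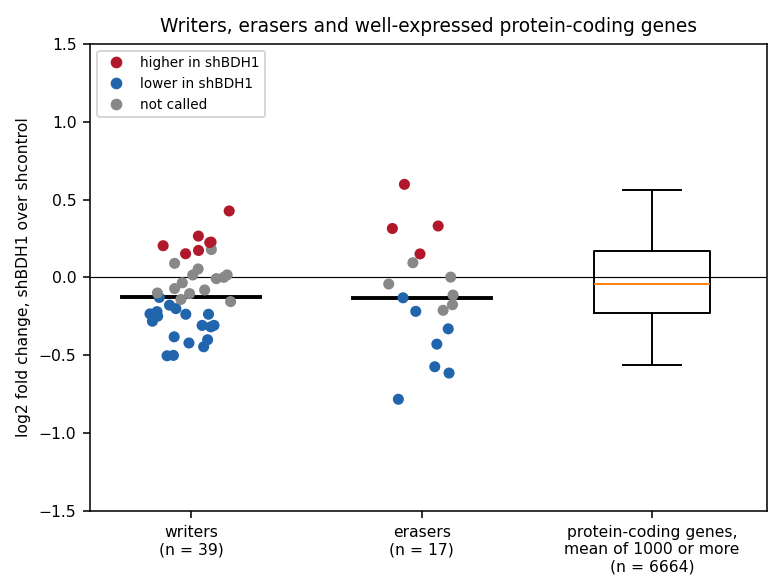
Log2 fold change (y axis, shBDH1 over shcontrol) of 39 writers and 17 erasers, 1 point per gene with a bar at the median, beside a box for 6664 protein-coding genes with a mean of 1000 or more (whiskers at the 5th and 95th percentiles, -0.56 and 0.56). Both medians lie at -0.13 and the erasers reach further in both directions.

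Among the JmjC erasers, the KDM2, KDM5 and KDM6 families each held 1 gene that rose and 1 that fell. For protein-coding genes with a mean of at least 1000, 26.3% rose and 34.6% fell. How often families of this size split in this way was not tested. Of the called genes in these families, KDM2B, KDM6A and KDM6B kept their call in every setting, and KDM2A, KDM5A and KDM5C did not. KDM6A and KDM6B both remove methyl groups from H3 lysine 27. KDM6A (UTX; ENSG00000147050, chromosome X, 44873177 to 45112602, hg38) had 1955 and 1837 normalized counts in shBDH1, against 1270 and 1234 in shcontrol (log2 fold change 0.60, SE 0.071, limma adjusted p = 7e-08). KDM6B (JMJD3; ENSG00000132510, chromosome 17, 7839904 to 7854796) had 1921 and 1856 in shBDH1, against 2931 and 2693 in shcontrol (log2 fold change -0.57, SE 0.063, limma adjusted p = 1.4e-08). The groups did not overlap for either gene, and the directions were opposite. Per kilobase of exon, the ratio of KDM6A to KDM6B was 1.03 and 1.01 in shBDH1 and 0.44 and 0.466 in shcontrol. By this measure similar levels in shBDH1 stood against an excess of KDM6B in shcontrol. The length is that of all annotated exons of a gene, so levels compared between genes depend on the annotation.

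KDM2A and KDM2B, CpG-island-binding demethylases of H3 lysine 36, also parted. KDM2B, which in addition recruits a Polycomb repressive complex 1 to CpG islands (ENSG00000089094, chromosome 12, 121429097 to 121581015), had 2435 and 2500 normalized counts in shBDH1, against 4375 and 4114 in shcontrol. It fell by 41.9% (log2 fold change -0.78, SE 0.055, limma adjusted p = 1.9e-12), where BDH1 itself was at -0.47. KDM2A had 4757 and 4343 in shBDH1 against 4161 and 4026 in shcontrol (log2 fold change 0.15, adjusted p = 0.02), a call that was lost without shBDH1 replicate 1 (adjusted p = 0.25) or shcontrol replicate 2 (0.15). Counts are per gene, so the long form of KDM2B and the short form that lacks the demethylase domain were not separated. RNF34 shares 439 exonic bases with KDM2B on the opposite strand, 3.22% of its length, and also fell (-0.45).

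Among the H3 lysine 4 erasers of the KDM5 family, KDM5A had 4682 and 4628 normalized counts in shBDH1 and 3803 and 3683 in shcontrol and rose by 0.31 on the log2 scale (limma adjusted p = 6.6e-06). KDM5C fell by 0.22 (adjusted p = 0.0011; 0.071 without shcontrol replicate 1), while KDM5B (0.09) and the Y-linked KDM5D (0.00) were not called. Of the H3 lysine 9 erasers, KDM4B had 2187 and 2216 in shBDH1 and 3023 and 2903 in shcontrol and fell by 0.43 (SE 0.058, limma adjusted p = 7.2e-07), KDM3A rose by 0.33 (adjusted p = 0.00057), and KDM3B (-0.11), KDM4C (-0.04) and KDM4D (-0.21) were not called. KDM7A, which acts on lysine 9 and 27, fell by 0.33 (adjusted p = 0.0025; 0.053 without shcontrol replicate 1). KDM8, a JmjC protein whose activity on histones is disputed, was low, with 201 and 167 in shBDH1 against 309 and 254 in shcontrol, and fell by 0.61 (SE 0.18, limma adjusted p = 0.0063). Its call was lost without shcontrol replicate 1 (adjusted p = 0.1) or shBDH1 replicate 2 (0.083).

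The flavin-dependent erasers moved little. KDM1A (LSD1), which removes methyl groups from H3 lysine 4 within the CoREST complex, had 10041 and 9942 normalized counts in shBDH1 and 10737 and 11139 in shcontrol. It fell by 0.13 (SE 0.038, limma adjusted p = 0.0069; 0.17 without shcontrol replicate 2). KDM1B was not called (-0.18, adjusted p = 0.097). Per kilobase of exon, KDM1A (1846 and 1828 in shBDH1, 1974 and 2048 in shcontrol) and EZH2 (1725 and 1768 in shBDH1, 1996 and 2071 in shcontrol) were the most abundant members. They were followed by PRMT1 (1636 and 1643 in shBDH1, 2039 and 1946 in shcontrol), PRMT5 (1192 and 1196 in shBDH1, 1396 and 1417 in shcontrol) and CARM1 (961 and 879 in shBDH1, 1223 and 1238 in shcontrol). In shcontrol the levels of KDM1A, EZH2 and PRMT1 overlapped; in shBDH1 these 3 did not.

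**Figure D3:**
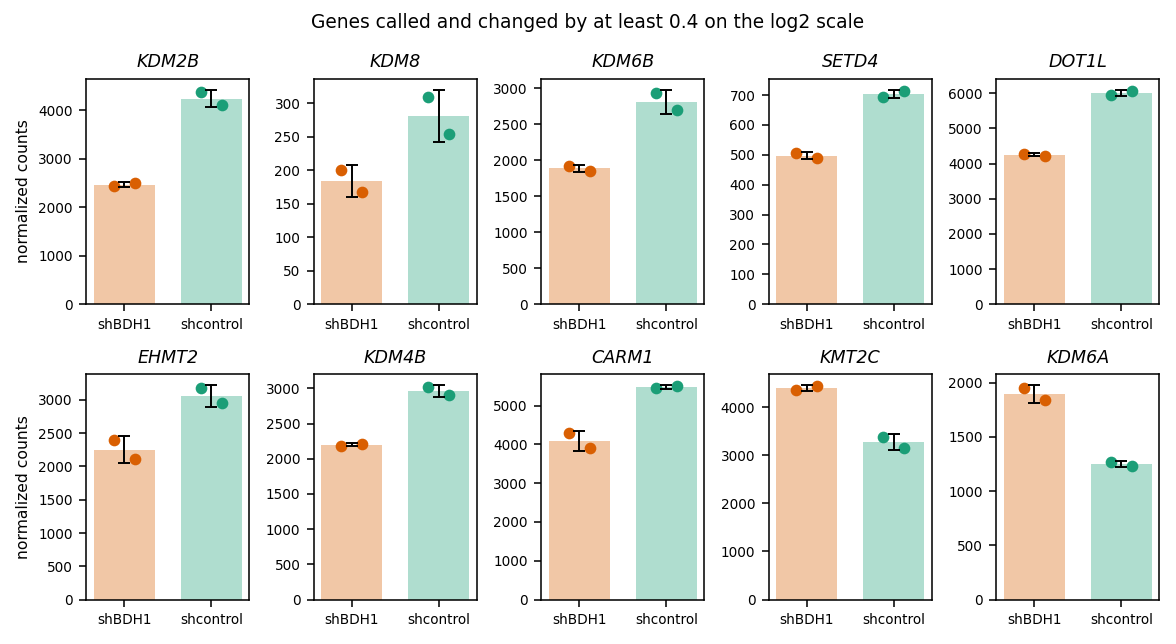
Normalized counts (y axis, from 0) in each library of the 10 members called with a change of at least 0.4 on the log2 scale; points are libraries, bars the mean and whiskers the SD (n = 2 each). In every panel the shBDH1 libraries lie on 1 side of the shcontrol libraries, above them in KMT2C and KDM6A and below them in the other panels.

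The H3 lysine 4 writers split. KMT2A, KMT2B, KMT2C, KMT2D, SETD1A and SETD1B work in COMPASS-type complexes. KMT2A and KMT2B act mainly at promoters, KMT2C and KMT2D at enhancers and SETD1A and SETD1B on most active promoters. KMT2C had 4347 and 4440 normalized counts in shBDH1, against 3384 and 3154 in shcontrol (log2 fold change 0.43, SE 0.052, limma adjusted p = 1.2e-07). KMT2A (MLL1) had 5704 and 5806 against 4792 and 5044 (0.23, adjusted p = 0.00023). SETD1A had 2445 and 2411 in shBDH1 against 3198 and 2862 in shcontrol and fell by 0.32 (adjusted p = 9.7e-05). Of the protein-coding genes at a mean of 1000 or more, 26.3% rose and 34.6% fell. Of the 8 H3 lysine 4 writers, 4 rose (also KMT2E at 0.17 and SETD7 at 0.15) and 2 fell (also KMT2B at -0.13). KMT2D (0.02) and SETD1B (-0.03) were not called. KMT2E has no clear methyltransferase activity, and SETD7 also methylates many non-histone proteins. The calls of 3 of them rested on single libraries. KMT2B was not called without shBDH1 replicate 2 (adjusted p = 0.2), shcontrol replicate 1 (0.16) or shcontrol replicate 2 (0.12). SETD7 was not called without shBDH1 replicate 1 (0.08), shBDH1 replicate 2 (0.054) or shcontrol replicate 2 (0.27), and KMT2E not without shcontrol replicate 2 (0.2). The sum of the 8 per kilobase was 2895 and 2810 in shBDH1 and 2929 and 2728 in shcontrol.

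Among partners of these complexes, 11 were tested, of which 1 rose (9.09%) and 4 fell (36.4%), with a median of -0.11. Of the protein-coding genes at a mean of 1000 or more, 26.3% rose and 34.6% fell. MEN1 (menin), which tethers KMT2A and KMT2B to chromatin, had 1573 and 1556 normalized counts in shBDH1 against 3655 and 3648 in shcontrol (log2 fold change -1.22, SE 0.059, limma adjusted p = 6.3e-16). It fell further than any member. CXXC1, the CpG-binding subunit of the SETD1 complexes, fell by 0.39, WDR5, a core subunit of all of them, by 0.33, and PAXIP1, of the KMT2C and KMT2D complexes, by 0.26 (adjusted p between 3e-06 and 0.00032).

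All 6 H3 lysine 9 writers had both shBDH1 libraries below both shcontrol libraries, and 4 fell. Of the protein-coding genes at a mean of 1000 or more, 46.0% lay below in this way and 34.6% fell. EHMT2 (G9a; ENSG00000204371, chromosome 6, 31879759 to 31897687), a dimethyltransferase that works with EHMT1, had 2398 and 2107 normalized counts in shBDH1 against 3177 and 2948 in shcontrol (log2 fold change -0.44, SE 0.064, limma adjusted p = 1.8e-06). Its antisense RNA EHMT2-AS1, which shares 592 exonic bases with it, fell too (-0.63). The strand setting of the counting is not stated, so reads of opposite-strand pairs such as this cannot be told apart. SETDB2 fell by 0.40 and SETDB1, which silences retroelements with TRIM28, by 0.38 (adjusted p = 0.0003 and 3.5e-05). SUV39H1, which makes trimethylated lysine 9 in heterochromatin, fell by 0.23 (adjusted p = 0.034), but not without shBDH1 replicate 1 (0.056), shBDH1 replicate 2 (0.15) or shcontrol replicate 2 (0.24). CERS2, which shares 13.4% of the exonic length of SETDB1, was not called (0.05), and AC231533.1, which shares 20.3% of that of SUV39H1, fell by 0.33; both lie on the opposite strand. SUV39H2 (-0.15, adjusted p = 0.075) and EHMT1 (-0.07, adjusted p = 0.34) were not called. Summed per kilobase, the 6 stood at 1490 and 1492 in shBDH1 and 1820 and 1807 in shcontrol.

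The core of Polycomb repressive complex 2 methylates H3 lysine 27. Its catalytic subunits EZH2 and EZH1 were called lower, while EED and SUZ12 were not called. The 95% interval of EZH1 (-0.32 to -0.03) overlapped those of EED and SUZ12, and differences between subunits were not tested. EZH2 had 7801 and 7996 normalized counts in shBDH1 against 9027 and 9366 in shcontrol and fell by 0.22 (SE 0.041, limma adjusted p = 6.3e-05). Its paralog EZH1 had 1450 and 1574 against 1681 and 1736 (-0.18, adjusted p = 0.046). That call was lost without shBDH1 replicate 1 (0.28), shcontrol replicate 1 (0.085) or shcontrol replicate 2 (0.21), and edgeR gave 0.06. EED, which reads the methylated tail, had 1316 and 1350 in shBDH1 against 1294 and 1272 in shcontrol (0.05, 95% interval -0.10 to 0.21), and SUZ12 had 3857 and 3589 against 3722 and 3757 (-0.01, 95% interval -0.12 to 0.10; the sign changed with the scaling). Neither was called. Of 8 partners of the complex tested, 4 rose and 1 fell, with a median of 0.15. Among all genes tested, 20.3% rose and 20.8% fell. For protein-coding genes with a mean of at least 1000 the shares were 26.3% and 34.6%. PHF19, a Polycomb-like protein that recruits the complex, had 4180 and 4684 in shBDH1 against 2088 and 2074 in shcontrol (log2 fold change 1.09, SE 0.059, limma adjusted p = 6.1e-15). The other Polycomb-like proteins PHF1 (0.59) and MTF2 (0.39) rose too, and RBBP4 fell by 0.15 (adjusted p = 0.0021; 0.086 without shcontrol replicate 2).

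DOT1L, the only known H3 lysine 79 methyltransferase (ENSG00000104885, chromosome 19, 2164149 to 2232578), had 4283 and 4226 normalized counts in shBDH1 against 5955 and 6081 in shcontrol. It fell by 0.50 on the log2 scale (SE 0.046, 95% interval -0.60 to -0.41, limma adjusted p = 6e-10), and the groups lay far apart relative to the spread within them. PLEKHJ1 and AC004490.1 overlap it on the opposite strand by 4.69% and 6.78% of its exonic length and had log2 fold changes of -0.43 and -0.62. Of 5 partners, MLLT1 (ENL) fell, with 2075 and 2140 in shBDH1 against 4884 and 4593 in shcontrol (-1.17, SE 0.055, limma adjusted p = 3.8e-16). AFF4, a scaffold of the super elongation complex, rose by 0.54, and MLLT10 (-0.02) and MLLT3 (-0.11) were among the 3 not called.

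Of the H3 lysine 36 writers, NSD2 had 11223 and 11436 normalized counts in shBDH1 against 13338 and 13352 in shcontrol and fell by 0.24 (limma adjusted p = 4.4e-06). NSD3 fell by 0.25 (adjusted p = 5.1e-05) and NSD1 was not called (-0.10, adjusted p = 0.094); these 3 make dimethylated lysine 36. SETD2, which makes the trimethylated form during transcription, rose to 5135 and 5392 in shBDH1, against 4502 and 4634 in shcontrol (0.20, adjusted p = 0.00096). The H4 lysine 20 writers gave 1 of each outcome. KMT5B rose by 0.27 (adjusted p = 0.0025), KMT5A, which makes the monomethylated form, fell by 0.20 (adjusted p = 0.0086; 0.19 without shcontrol replicate 1), and KMT5C was not called (0.00).

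None of the 8 arginine methyltransferases tested rose, and 4 fell, where 20.8% of all genes tested and 34.6% of the protein-coding genes at a mean of 1000 or more did. CARM1 (PRMT4), a coactivator that dimethylates arginine asymmetrically, had 4281 and 3916 normalized counts in shBDH1 against 5447 and 5515 in shcontrol (log2 fold change -0.42, SE 0.05, limma adjusted p = 7.3e-08). PRMT1, the main asymmetric enzyme, had 7846 and 7879 against 9778 and 9335 (-0.28, adjusted p = 1.7e-06), and PRMT5, the main symmetric enzyme, had 4134 and 4147 against 4840 and 4913 (-0.24, adjusted p = 0.0002). PRMT7 fell by 0.31 (adjusted p = 0.00067). PRMT3 (-0.14), PRMT6 (-0.10), PRMT2 (-0.08) and PRMT9 (0.02) were not called. Per kilobase, the 9 arginine writers summed to 4923 and 4808 in shBDH1 and 5855 and 5817 in shcontrol. All 4 listed partners of PRMT5 fell as well. RIOK1, an adaptor, fell by 0.50 (adjusted p = 6e-06), COPRS by 0.49 (adjusted p = 9.9e-05), and WDR77, the obligate subunit, by 0.22 (adjusted p = 0.016). WDR77 was not called without shBDH1 replicate 2 (0.1) or shcontrol replicate 1 (0.17). CLNS1A fell by 0.17 (adjusted p = 0.017), but not without shBDH1 replicate 2 (0.063), shcontrol replicate 1 (0.11) or shcontrol replicate 2 (0.068). PRMT5-AS1 shares 938 exonic bases with PRMT5 on the opposite strand, 27.1% of its length, and YIPF2 shares 886 with CARM1, 19.9%; they fell by 0.19 and 0.21.

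The remaining SETD genes mostly have substrates other than histones. SETD4 had 505 and 488 normalized counts in shBDH1 against 693 and 714 in shcontrol and fell by 0.50 (SE 0.11, limma adjusted p = 0.00033). SETD5 fell by 0.31 (adjusted p = 1.8e-06), SETD3, which methylates a histidine of actin, rose by 0.22 (adjusted p = 0.0024), and SETD6 (0.09) and SETD9 (0.18, adjusted p = 0.068) were not called.

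Ratios between related genes were taken in each library for 16 pairs. With 2 libraries against 2, the exact two-sided permutation test cannot give a p below 0.333, and adjusted over the 16 pairs no value lay below 0.444, so that no ratio could pass. For 12 of the 16 ratios the libraries of shBDH1 and shcontrol stood apart, where 69.0% of all single genes tested and 81.4% of the protein-coding genes at a mean of 1000 or more did not overlap; for PRMT1 to PRMT5, 1 of these 12, the nearest values of the groups were equal as rounded, at 1.37. Besides KDM6A to KDM6B, the ratio of KDM2A to KDM2B was 2.56 and 2.28 in shBDH1 and 1.25 and 1.28 in shcontrol. That of KMT2C to KMT2D was 0.426 and 0.46 against 0.328 and 0.338, and that of EHMT2 to EHMT1 was 2.8 and 2.34 against 3.45 and 3.19. EZH2 to EZH1, in contrast, stood at 8.32 and 7.85 in shBDH1 and 8.3 and 8.34 in shcontrol, values that overlapped. The ratios SUV39H1 to SUV39H2, KDM1A to KDM1B and SETDB1 to SETDB2 overlapped too.

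**Figure D4:**
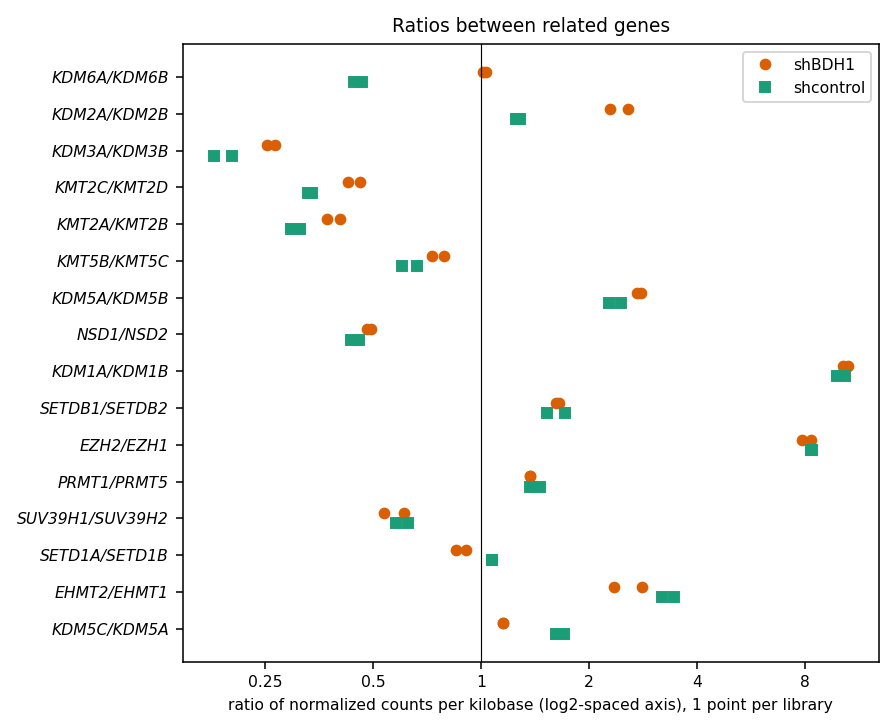
Ratio of normalized counts per kilobase of exon between related genes (x axis, log2-spaced), 1 point per library, shBDH1 above shcontrol in each row. KDM6A over KDM6B moves furthest, to 1.01 and 1.03 in shBDH1 against 0.44 and 0.466 in shcontrol, and EZH2 over EZH1 overlaps between groups.

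Genes that supply or remove the cofactors of these enzymes were listed too. Of 8 tested in the S-adenosylmethionine cycle, 1 rose and 2 fell, with a median of -0.12. AHCY, which hydrolyses S-adenosylhomocysteine, the inhibitory product of all methyltransferases, had 1986 and 2016 normalized counts in shBDH1 against 3016 and 3033 in shcontrol (log2 fold change -0.60, SE 0.059, limma adjusted p = 2e-09). MAT2B fell by 0.22 (adjusted p = 0.0058; 0.13 without shcontrol replicate 2), and the low GNMT rose by 0.66 (adjusted p = 0.021), but not without shBDH1 replicate 1 (0.093), shBDH1 replicate 2 (0.1) or shcontrol replicate 1 (0.18). ADK was not called (-0.21, adjusted p = 0.057), but fell without shBDH1 replicate 2 (0.0042) or shcontrol replicate 1 (0.021). Of 13 genes around 2-oxoglutarate, 1 rose (7.69%) and 7 fell (53.8%), with a median of -0.19. The mitochondrial IDH2 had 6069 and 5994 against 8114 and 8050 (-0.42, adjusted p = 2.4e-09), while the cytosolic IDH1 had 1839 and 1883 against 1168 and 1195 (0.65, adjusted p = 1.4e-08). GLUD1 fell by 0.32 and D2HGDH, which oxidises D-2-hydroxyglutarate, by 0.49 (both adjusted p = 2.3e-06). MYC and CDK4, the study's genes of interest, fell by 0.99 and 0.56.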

How the data were processed

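Libraries of 2 shBDH1 and 2 shcontrol Jurkat samples were made from DNase-treated RNA by mRNA library preparation and sequenced from both ends, per the labels' protocols. HISAT2 2.2.1, FastQC 0.11.9 and the build hg38 come from the submitters' processing notes; the sources used here do not give the counter, its annotation or its strand setting. The deposited values are a normalized signal: the authors scaled each library's read counts per gene with 1 size factor. Every value was a whole multiple of 1 step (100.0% within 0.01 reads), with size factors of 1.0174 and 0.9944 for shBDH1 and 0.9739 and 0.9785 for shcontrol. Dates in 21 symbols were turned back through gene IDs.

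Genes with a mean of at least 10 were fitted by limma as log2(value + 1), the variance prior following intensity (2 residual and 25.8 prior degrees of freedom), shBDH1 against shcontrol, Benjamini-Hochberg adjusted over all genes at 0.05. Alternatives were edgeR, DESeq2 and limma-voom fitted to the recovered reads, other scalings, filters, pseudocounts, a replicate block and each library left out. Fits were tested on simulated data. The members, gene lists and tests were chosen with earlier results of these data known. Named genes are the members, BDH1, MYC and CDK4, and per list the 4 partners with the smallest p, of which 1 reader is not reported here; RNF34, PLEKHJ1, YIPF2, CERS2 and the antisense RNAs were named for their overlap after values were seen. Exon lengths and positions are from GENCODE 29 (GRCh38), promoters from RefSeq; 7 motifs were searched. Those of YY1 and NRF1 were shortened by 1 base after the longer forms had been searched; the longer forms stood in the same 5 members for YY1 (1.2% of all promoters) and in SETD4 alone for NRF1 (1.24%). The planned ratio of KDM4A to KDM4B was not run.

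The chi-square per degree of freedom was 5.13 between the shBDH1 libraries and 3.72 between the shcontrol libraries, more than sampling noise gives, so neither pair was merged into 1 sample. Tables were made in Python 3.11.15 (pandas 2.3.3, matplotlib 3.10.9) and fits in R 4.3.3 with DESeq2 1.42.0, edgeR 4.0.16 and limma 3.58.1.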

Additional observations from a re-analysis of the deposited data

How the results depend on the processing

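Each result was recomputed under 16 settings. The largest effect came from a variance prior that does not depend on intensity: it called 1598 genes higher and 1246 lower, and of the members 2 higher (1 writer, 1 eraser) and 5 lower (2 writers, 3 erasers). Of the 36 called genes that the naming rule takes outside the members, 24 lost the call there, BDH1 (adjusted p = 0.083) among them; MEN1, PHF19, MLLT1, HMG20B, RIOX2, CBX2, ING1, AHCY, IDH1, IDH2, MYC and CDK4 kept it. The 7 members called in every setting were KDM2B, KDM4B, KDM6B, DOT1L and SETD4, which fell, and KDM6A and KMT2C, which rose; the other 29 called members lost the call in at least 1 setting, and no called member changed sign. EZH1, SUV39H1 and KMT2B also lost it with DESeq2, with library totals, with upper-quartile factors and without a filter. With the other settings apart from left-out libraries, 9 to 12 members were called higher and 22 to 25 lower. With a library left out, the counts were 8 to 11 members higher and 19 to 23 lower, 5 to 7 writers higher and 15 to 17 lower, 3 to 4 erasers higher and 4 to 7 lower, and 3011 to 3437 genes higher and 3201 to 3504 lower; the difference of the writer and eraser medians ran from -0.035 (without shcontrol replicate 2) to 0.019.

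The replicate number as a block gave 12 members higher and 25 lower, SETD9 (adjusted p = 0.042) joining those that rose. The libraries share only a number: the correlation of their within-group differences over genes was 0.0013, so the fit without the block is reported. SETD9 was also called with library totals (0.038), upper-quartile factors (0.04) and without shBDH1 replicate 2 (0.011), and SUV39H2 without shBDH1 replicate 2 (0.042). Some uncalled genes changed sign in log2 fold change. SUZ12 was at 0.00088 with DESeq2, 0.00043 with edgeR, 0.02 with library totals, 0.01 with upper-quartile factors and 0.04 without shBDH1 replicate 2. With TMM factors KDM5D was at -0.001 and KMT5C at -0.0022, and with library totals MLLT10 was at 0.001. With a library left out, KDM5D ran from -0.12 to 0.12, KMT2D from -0.06 to 0.09, KMT5C from -0.03 to 0.04, PRMT9 from -0.11 to 0.14, SETD1B from -0.12 to 0.05, PRMT6 from -0.22 to 0.02, SETD6 from -0.0034 to 0.19, SUZ12 from -0.06 to 0.04 and MLLT10 from -0.06 to 0.02. The causes were not tested. Depth limits the lowest members most: the SE was 0.18 for KDM8 and 0.2 for KDM4D, against 0.036 for NSD2.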

Other observations

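Methyltransferases and demethylases outside the naming rule had a median log2 fold change of 0.09: of 16 tested, 6 rose and 3 fell. By comparison, 20.3% of all genes tested rose and 20.8% fell. Highly expressed protein-coding genes, whose mean reached 1000, rose in 26.3% of cases and fell in 34.6%. ASH1L, an H3 lysine 36 writer, had 3701 and 3503 normalized counts in shBDH1 against 2791 and 2565 in shcontrol (0.43, limma adjusted p = 5.4e-07), and PRDM2 had 2937 and 2799 against 2221 and 2116 (0.40, limma adjusted p = 2.8e-06). SMYD5 fell by 0.46 and the JmjC oxygenase RIOX2 by 0.39. Of 13 genes listed for the reading of methylated lysine, 4 rose (30.8%) and 3 fell (23.1%). Not all of the 13 are readers themselves, since the list also held TRIM28, named above with SETDB1. CBX2, a chromobox subunit of Polycomb repressive complex 1, had 1577 and 1659 in shBDH1 against 3187 and 3037 in shcontrol (-0.94, SE 0.062, limma adjusted p = 4.9e-13). The H3 lysine 4 reader ING1 rose by 0.54 and ING4 fell by 0.57.

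Of 9 partners of KDM1A in the CoREST complex, 3 rose (33.3%) and 1 fell (11.1%), with a median of 0.05. The shares over all genes tested were 20.3% and 20.8%, and 26.3% and 34.6% over protein-coding genes at a mean of 1000 or more. HMG20B had 1723 and 1836 normalized counts in shBDH1 against 2614 and 2558 in shcontrol (-0.54, limma adjusted p = 4.9e-08), ZMYM2 rose by 0.32 (adjusted p = 2.6e-06), and RCOR2, which was low, rose by 0.49 (adjusted p = 0.012; 0.19 without shBDH1 replicate 2). RCOR1 rose by 0.22 (adjusted p = 0.0044), but was not called without shBDH1 replicate 1 (0.085) or shcontrol replicate 2 (0.12).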
